A study of Danio rerio with 10 samples.

Results

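The comparison described here sets 2 groups of *rpgrip1l*-/- embryos at 2 dpf beside each other. One group had a curled-down tail (CDT) and the other a normal-looking tail, and the tail form is the only difference the sample labels give between them. Its members are the 2 CDT libraries and the 2 normal tail libraries, which were chosen by these labels alone and make up 4 of the 10 libraries of the series. Each library was made from poly(A) RNA of 30 to 35 whole zebrafish embryos pooled together. Per the labels, both mutant groups came from matings of homozygotes, so that both carry the *rpgrip1l* mutation, while 2 WT libraries at 2 dpf came from AB strain matings. The other 4 libraries of the series are *rpgrip1l*-/- and WT at 5 dpf, where the labels give no tail form. The study describes both tail forms among mutant siblings of a clutch, but no source used here says which pools share a clutch or parents, and p-values therefore measure the spread between these samples, which may be technical. The embryos were sorted by tail form before RNA was taken, so the comparison is one of 2 outcomes of the same genotype, not of an agent or an allele.

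The transition zone is the gate at the base of the cilium that controls which proteins enter and leave it, and the protein encoded by *rpgrip1l* is one of its scaffold components. A CDT is a known outcome in zebrafish that lack ciliary genes. The body axis is straightened by motile cilia that move cerebrospinal fluid, by the Reissner fiber that runs through the central canal, and by urotensin-related peptides from neurons that contact this fluid. The notochord, a rod of vacuolated cells inside a collagen-rich sheath, stiffens the axis at this age and lies between the blocks of trunk muscle.

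The comparison was made to see what separates mutants with and without the tail defect. Total counts on genes ranged from 9101264 to 13945391 over the 4 mutant libraries, and 42.5% to 43.7% of reads in the 6 libraries at 2 dpf fell on genes. Values are given as read counts scaled to library size (CPM) after TMM scaling in edgeR, and a fold change always sets CDT over normal tail on the log2 scale, so that a positive value means higher in CDT. A value by which a gene rose or fell, or that follows its name or levels without a unit, is this log2 fold change. A gene was called when its Benjamini-Hochberg adjusted p from edgeR's quasi-likelihood test, fitted over the 6 libraries at 2 dpf and all 19636 genes tested, was under 0.05. Across all genes the log2 levels of the CDT libraries correlated with each other at 0.990, those of the normal tail libraries at 0.989, and CDT with normal tail libraries at 0.986 to 0.989, a description over genes that are not independent. Mutant and WT libraries correlated at 0.962 to 0.968. Of 29 markers of embryonic tissues, 24 were found among the genes tested, as 27 genes, and 1 of these, the erythroid alas2, was called. The skin marker krt4 had 33916 and 33802 CPM in CDT against 35477 and 31694 CPM in normal tail, and the liver marker fabp10a had 1.15 and 1.57 CPM in CDT against 0.899 and 0.562 CPM in normal tail.

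Between CDT and normal tail, 187 genes were called, 129 higher and 58 lower in CDT. This is 0.952% of the genes tested, 0.657% higher and 0.295% lower. These shares are the ones to set beside each count of called list members below. In the same fit, 40.5% of genes were called between CDT and WT and 39.6% between normal tail and WT. These last comparisons share libraries with the first and with each other, and WT values are given below only side by side. Per the labels, WT pools came from AB strain matings and mutant pools from matings of homozygotes. Parents and clutch therefore cannot be told apart from genotype when a mutant group is set against WT. The TMM scaling factors were also lower in both WT libraries than in every mutant library. A place relative to WT given below is a description only. The changes between tail forms were mostly small: 42 of the 187 were at least 2-fold, and the smallest called log2 fold change was 0.32 in size. In all 187 the CDT and normal tail libraries did not overlap, which was also so for 19.8% of all genes with CDT above and 19.2% with CDT below. A total of 22 genes, 16 higher and 6 lower, were called under each of 14 other ways of fitting the data, including those that left out any 1 library. The count of calls changed with the library left out, and all groups share 1 estimate of spread in the fit. The 2 CDT libraries differed more from each other than those of the other groups at 2 dpf. The chi-square per degree of freedom over genes was 5.96 for CDT, 2.82 for normal tail and 3.09 for WT. Leaving libraries out therefore does not tell which group the calls rest on. No called gene changed its sign under any of the 14 other fits.

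**Figure D1:**
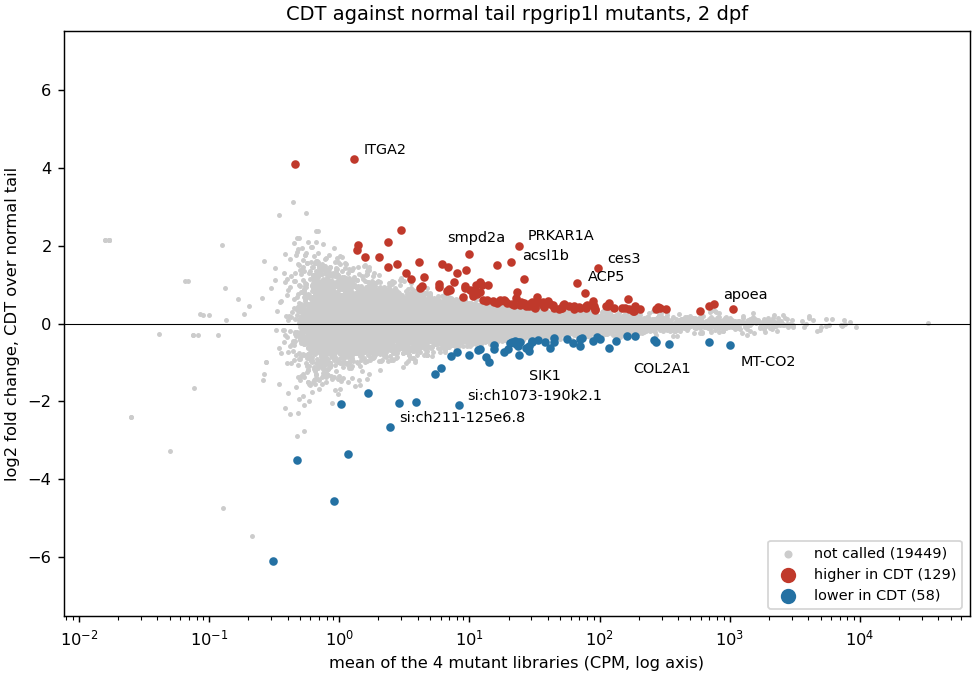
Each point is 1 of the 19636 genes tested, with its mean over the 4 mutant libraries in CPM on a log axis against its log2 fold change of CDT over normal tail. The 129 genes called higher are red and the 58 called lower blue, and most of the coloured points lie within a 2-fold change, with a few large changes among genes of low level.

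The gene with the lowest adjusted p was a copy of the gene for regulatory subunit type I alpha of protein kinase A, listed as PRKAR1A (ENSDARG00000076128). This subunit holds the kinase inactive until cyclic AMP binds it. It had 38.9 and 37.9 CPM in CDT against 9.39 and 9.76 CPM in normal tail, and 52.1 and 46 CPM in WT. The normal tail libraries were the low ones, about 4-fold below CDT, with a log2 fold change of 2.0 (SE 0.13, edgeR adjusted p = 1.69e-16). The other copy, prkar1ab, had 7.14 and 7.15 CPM in CDT against 10.4 and 9.55 CPM in normal tail, higher in both normal tail libraries than in either CDT library, but its log2 fold change of -0.47 did not pass the test (SE 0.18, edgeR adjusted p = 0.265). PRKAR1B was near even at 0.07. Of 33 genes of protein kinase A and cyclic AMP signalling tested, the first PRKAR1A copy was the only one called. SIK1, a salt-inducible kinase whose gene is induced by cyclic AMP in mammals, moved the other way, with 16.8 and 17.7 CPM in CDT against 33.4 and 27.5 CPM in normal tail, a log2 fold change of -0.81 (SE 0.13, edgeR adjusted p = 5.49e-05). WT had 12.4 and 11.2 CPM of SIK1, below all 4 mutant libraries.

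Single genes of signalling and transcription were called, and over all genes the share called was 0.952%. Of 74 Wnt pathway genes 1 was called, a copy of the secreted Wnt inhibitor SFRP1 (ENSDARG00000057678). It had 31.5 and 40.6 CPM in CDT against 14.1 and 18.3 CPM in normal tail, and both CDT libraries were above both normal tail libraries (log2 fold change 1.13, SE 0.14, edgeR adjusted p = 2.60e-07). In WT it had 37.5 and 52.8 CPM, within and above the range of CDT. The other copy of SFRP1 (ENSDARG00000035521) had 25.3 and 25.3 CPM in CDT against 22 and 22.9 CPM in normal tail. Its log2 fold change was 0.17, and it was not called. THRB, a nuclear receptor for thyroid hormone, was the 1 call among 44 genes of hormone and growth axes, of which 31 had a positive fold change, with a median of 0.16. Both CDT libraries were above both normal tail libraries in 18 of the 44 and below in 4, against 19.8% and 19.2% of all genes. The level of THRB was 13.3 and 16.5 CPM in CDT against 6.89 and 7.86 CPM in normal tail, 8.81 and 10.4 CPM in WT, and the log2 fold change was 1.0 (SE 0.17, edgeR adjusted p = 0.000158). KLF3, a Krüppel-like factor, rose by 0.49 with 34.4 and 33.3 CPM in CDT against 23.1 and 25 CPM in normal tail. GRHL2, a grainyhead-like factor of epithelia, rose by 0.75 with 13.9 and 14.8 CPM in CDT against 9.19 and 7.94 CPM in normal tail. Among those that fell was a gene listed as KDM8, an oxygenase of the Jumonji family, at -0.83, with 5.61 and 4.83 CPM in CDT against 9.19 and 9.41 CPM in normal tail. GRHL2 was chosen for mention after its values were seen. The calls of PRKAR1A, SFRP1, THRB and SIK1 held under all 14 alternatives, and of the 5 genes from SFRP1 to KDM8, 4 were still called without CDT replicate 1, 4 without CDT replicate 2, 3 without normal tail replicate 1 and 2 without normal tail replicate 2.

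Enzymes of ester and lipid handling with a call were grouped here after their values were seen. The carboxylesterase ces3, which hydrolyses esters, had 133 and 152 CPM in CDT against 51.4 and 54.5 CPM in normal tail, and 101 and 117 CPM in WT. Both CDT libraries lay above WT and both normal tail libraries below it (log2 fold change 1.43, SE 0.09, edgeR adjusted p = 6.43e-16). Its neighbour ces2a rose by 0.46 at a higher level, 768 and 839 CPM in CDT against 604 and 563 CPM in normal tail, while ces2b at -0.19 was not called. These were the 2 calls among 3 carboxylesterase genes, a list added after the values were seen. The gene acsl1b, for a long-chain acyl-CoA synthetase that activates fatty acids, had 35.5 and 26.7 CPM in CDT against 12 and 9.2 CPM in normal tail and rose by 1.58 (SE 0.14, edgeR adjusted p = 1.79e-11). The gene smpd2a, for a sphingomyelinase that releases ceramide, had 15.5 and 15 CPM in CDT against 4.4 and 4.49 CPM in normal tail and rose by 1.77 (SE 0.17, edgeR adjusted p = 3.88e-10). In WT, acsl1b had 38.2 and 38 CPM and smpd2a 17.6 and 15.7 CPM, so that for both the normal tail libraries were the ones away from WT. CYP4V2, a fatty acid hydroxylase of the cytochrome P450 family, rose by 0.98 with 17.4 and 16.1 CPM in CDT against 8.69 and 8.29 CPM in normal tail, and cyp2k16, of another P450 family, fell by 0.48 with 17 and 18.7 CPM in CDT against 24.9 and 24.7 CPM in normal tail. These were the only 2 calls among 56 P450 genes. Also higher were insig1, a brake on sterol synthesis, with 38.1 and 49 CPM in CDT against 29.2 and 29.9 CPM in normal tail and 0.56, and ACP5, a tartrate-resistant acid phosphatase of lysosomes, with 91.7 and 89.3 CPM in CDT against 45.4 and 42.1 CPM in normal tail and 1.05 (SE 0.09, edgeR adjusted p = 1.79e-11). ACP5 stood higher still in WT at 249 and 226 CPM. The calls of ces3, acsl1b, smpd2a, CYP4V2 and ACP5 held under all 14 alternatives. Of the 8 called here, 7 were still called without CDT replicate 1, 7 without CDT replicate 2, 6 without normal tail replicate 1 and 5 without normal tail replicate 2. ACP5 was chosen after its values were seen.

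Of 21 apolipoprotein genes, which carry lipids in plasma, 5 were called, all higher, against 0.657% of all genes, and the median of the 21 was 0.19 against 0.01 for all genes. The most abundant of the 5 called, apoea, had 836 and 933 CPM in CDT against 604 and 654 CPM in normal tail. Its log2 fold change was 0.49, and WT had 1320.2 and 1372 CPM. The neighbouring apoa4a had 59.5 and 64.3 CPM in CDT against 46.4 and 41.6 CPM in normal tail and rose by 0.50, and apobb.2, an apolipoprotein B, had 123 and 91 CPM in CDT against 81.3 and 62.1 CPM in normal tail and rose by 0.59. The other 2 were copies of afp4, which was put on this list though its symbol is not that of an apolipoprotein, at 0.41 and 0.32. Apolipoprotein genes of higher level, such as apoa2 at -0.01, apoa1b at 0.11 and apoa1a at 0.15, were not called. Summed over the 21, the level was 30482 and 29913 CPM in CDT and 28659 and 27833 CPM in normal tail. This list was drawn up after the values were seen, and the number called was 2 without normal tail replicate 1 and 1 without replicate 2. Of 73 genes on a wider list for liver, intestine and pancreas, 3 were called, and these were apoea, apoa4a and apobb.2 again. The median of the 73 was 0.05. Other plasma protein genes that rose, chosen after their values were seen, were F7, a clotting factor, at 0.58 with 16.6 and 15.8 CPM in CDT against 9.79 and 11.7 CPM in normal tail, PROZ, the vitamin K-dependent protein Z, at 1.07 with 10.2 and 10.5 CPM in CDT against 4.5 and 5.27 CPM in normal tail, and itih3b.2, an inter-alpha-trypsin inhibitor chain, at 0.56. Of 71 genes of glycolysis and energy metabolism 2 were called, insig1 and PCK1, both higher. PCK1, the enzyme that commits carbon to gluconeogenesis, had 78.8 and 69.2 CPM in CDT against 47.4 and 59.5 CPM in normal tail (log2 fold change 0.46). PC, pyruvate carboxylase, which feeds the same route, rose by 0.47 and was also chosen after its values were seen. Of the 5 named after the apolipoproteins, 2 were still called without CDT replicate 1, 4 without CDT replicate 2, 3 without normal tail replicate 1 and 2 without normal tail replicate 2.

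Blood genes differed in part. Of 29 erythroid genes 6 were called, all higher in CDT, against 0.657% of all genes. The median of the list was 0.00, close to that of all genes. The gene alas2, the first enzyme of heme synthesis in red cells, had 92.5 and 87.5 CPM in CDT against 73.8 and 62.6 CPM in normal tail (log2 fold change 0.41), and cahz, the carbonic anhydrase of fish red cells, had 142 and 152 CPM in CDT against 111 and 111 CPM in normal tail (0.40). A copy of SLC4A1 (ENSDARG00000024560), a chloride and bicarbonate exchanger, rose most, with 10.1 and 9.8 CPM in CDT against 3.9 and 3.37 CPM in normal tail and a log2 fold change of 1.46 (SE 0.21, edgeR adjusted p = 1.04e-05). Zebrafish have a form of this exchanger in red cells and another in ionocytes of the skin, and the shared symbol does not tell which copy is which. The more abundant copy of SLC4A1 (ENSDARG00000012881) did not follow: it had 157 and 151 CPM in CDT against 168 and 144 CPM in normal tail and a log2 fold change of -0.02. KLF3 is the other non-globin call of the list. Among 11 globin genes, a list added after the values were seen, 5 were called higher and the median was 0.34. Summed over the 11, globin level was 4636 and 5106 CPM in CDT, 4169 and 3894 CPM in normal tail and 8164 and 8327 CPM in WT, so both mutant groups were far below WT and CDT the nearer of them. An embryonic beta-type globin listed as HBE1 (ENSDARG00000115405) gave 1153 and 1218 CPM in CDT against 928 and 918 CPM in normal tail and 0.36, and hbae5, an alpha-type chain, gave 95.9 and 109 CPM in CDT against 71.6 and 76.8 CPM in normal tail and 0.46. The globins hbbe3 at -0.12 and hbae1.1 at -0.05 were not called. Without normal tail replicate 1 no globin was called, without replicate 2 there were 2, and the erythroid list then had 2 and 1 calls. It had 5 without either CDT library. In whole embryos, fewer cells of a type cannot be told apart from less RNA in each cell.

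Notochord genes had mostly negative values, and those called were nearly all lower in CDT. Of 31 tested, 25 had negative values and the median was -0.19. Of the 31, 5 were called lower and 1 higher, against 0.295% and 0.657% of all genes. On the log2 scale the median distance of the 31 from their mean over the 4 mutant libraries differed by library. It was -0.01 and -0.18 in the CDT libraries and 0.12 and 0.03 in the normal tail libraries, so CDT replicate 1 lay near the mean. All but 1 of the 5 that fell encode collagens. The copy of COL2A1 (ENSDARG00000069093), the main fibrillar collagen of the sheath, had 305 and 258 CPM in CDT against 389 and 425 CPM in normal tail, and 236 and 219 CPM in WT, a log2 fold change of -0.53 (SE 0.09, edgeR adjusted p = 0.000131). COL11A2, which joins the same fibrils, had 61.6 and 52 CPM in CDT against 79.4 and 89.4 CPM in normal tail (-0.57), and col9a1b, a chain of the collagen on the fibril surface, had 245 and 209 CPM in CDT against 301 and 329 CPM in normal tail (-0.47). The gene col8a1a, for a network-forming collagen known from zebrafish for its part in notochord form, had 23.1 and 19.7 CPM in CDT against 34.8 and 32.1 CPM in normal tail (-0.64). LOXL1, an enzyme that crosslinks collagen and elastin, had 9.57 and 9.46 CPM in CDT against 12.9 and 16.6 CPM in normal tail (-0.65). For COL2A1 and COL11A2 the order of the groups was WT lowest, CDT between and normal tail highest, and for LOXL1 the CDT libraries were the lowest of the 6. The other copy of COL2A1 (ENSDARG00000011407) was even at -0.06. A gene outside the list, cmn, encodes calymmin, a matrix protein of the zebrafish notochord sheath, and was called lower at -0.71, with 25.9 and 17.6 CPM in CDT against 32.2 and 38.7 CPM in normal tail. The elastin interface gene emilin3a had the lowest value of the list, -1.11 (SE 0.31, edgeR adjusted p = 0.063), and did not pass, though it did with no filter on low counts. The 1 higher gene was MIA, a small secreted protein of cartilage in mammals, with 18.2 and 20.6 CPM in CDT against 11.2 and 15.1 CPM in normal tail (0.54). The transcription factor tbxta at -0.20 was not called. Without normal tail replicate 2 only 1 of the list was called lower, and without any other single library 4 or 5. The call of cmn was lost without CDT replicate 2 or normal tail replicate 2, and the list's median stayed between -0.29 and -0.09 under all 14 alternatives.

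**Figure D2:**
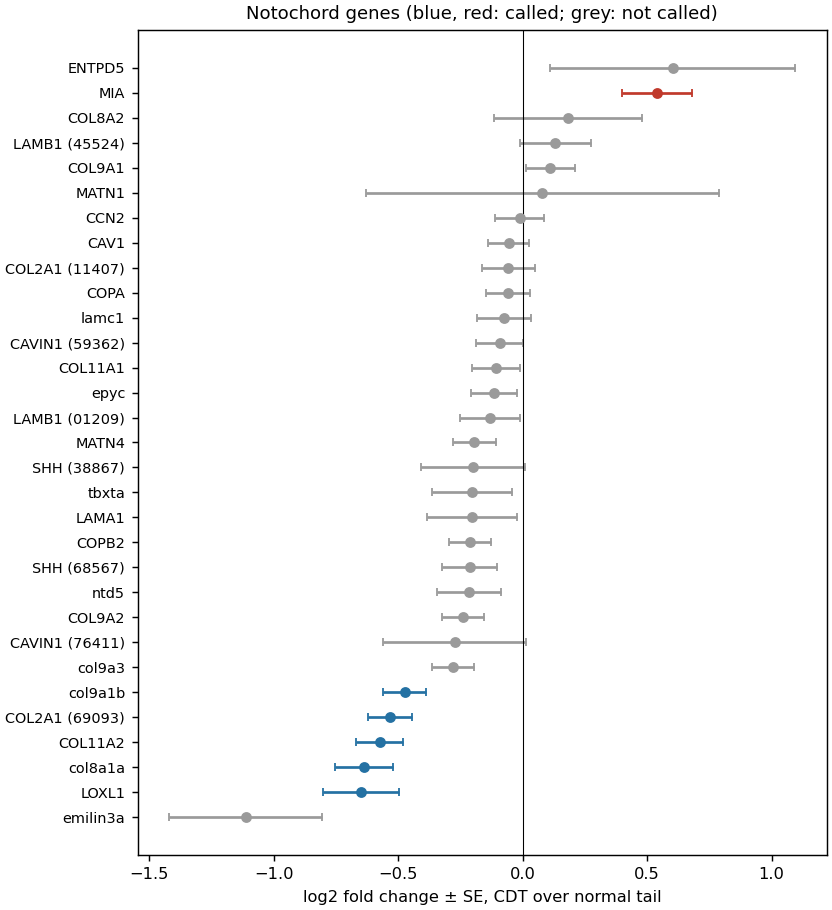
Log2 fold change of CDT over normal tail for the 31 notochord genes tested, with bars of 1 SE, where numbers in brackets are the ends of the identifiers of copies that share a symbol. The 5 called lower are blue and the 1 called higher is red, and 25 of the 31 points lie below 0.

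Matrix and adhesion genes outside the notochord went both ways. Of 55 collagen genes 4 were called, all lower and all notochord genes named above. FN1, fibronectin, was higher in CDT with 238 and 166 CPM in CDT against 141 and 123 CPM in normal tail and a log2 fold change of 0.62, and WT, at 70.2 and 59.4 CPM, was lower than all 4 mutant libraries. Among called genes with a symbol and a mean of at least 1 CPM, the largest rise was that of ITGA2, an integrin alpha chain that in mammals binds collagen, which had 39 and 36 counts in CDT against 2 and 1 in normal tail and 16 and 17 in WT. Its ratio of CDT to normal tail was 20.0, with an exact 95% counting interval of 6.57 to 99.0, and its edgeR adjusted p was 1.98e-05. PDGFA, a platelet-derived growth factor chain, was lower in CDT, with 1 and 1 counts against 12 and 8, a ratio of 0.096 with an interval of 0.0091 to 0.329. Among 38 protocadherins, cadherins best known from neurons, 2 were called: PCDH20 at 2.1 with 3.7 and 3.88 CPM in CDT against 1.4 and 0.492 CPM in normal tail, and pcdh1g26 at 1.3 with 4.66 and 4.63 CPM in CDT against 1.4 and 2.25 CPM in normal tail. A copy of CLDN11 (ENSDARG00000030723), a tight junction claudin, was the 1 call among 32 claudins and fell by 1.15, with 5.36 and 2.04 CPM in CDT against 9.19 and 7.58 CPM in normal tail. The large proteoglycan vcanb fell by 0.50, and the semaphorin co-receptor PLXNA3 by 0.66. Of 21 body wall and fin fold matrix genes none was called. FN1, PDGFA, vcanb and PLXNA3 were chosen after their values were seen. Of the 8 adhesion and matrix genes called here, 5 were still called without CDT replicate 1, 4 without CDT replicate 2, 3 without normal tail replicate 1 and 2 without normal tail replicate 2.

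Most muscle genes had small negative values, and few passed the test. Of 65 skeletal muscle genes tested, 54 had negative values and the median was -0.16. Both CDT libraries were below both normal tail libraries in 31 and above in 4, against 19.2% and 19.8% of all genes. Of the 65, 3 were called, all lower, against 0.295% of all genes. The 3 were myhz2, myhz1.3 and MEF2C. The fast myosin heavy chain genes myhz2 and myhz1.3 had 134 and 152 CPM in CDT against 179 and 182 CPM in normal tail and 109.7 and 115 CPM in CDT against 144 and 163 CPM in normal tail, with log2 fold changes of -0.33 and -0.45. As near-identical neighbours they may share reads. A copy of MEF2C (ENSDARG00000029764), a transcription factor of muscle, heart and neurons, fell by 0.58 with 18.2 and 19.6 CPM in CDT against 25.8 and 30.4 CPM in normal tail. Outside the list, UNC45B, the chaperone that folds myosin in muscle, had 12.2 and 12.9 CPM in CDT against 19.6 and 17.3 CPM in normal tail (-0.55). Its partner hsp90aa1.1, the muscle form of Hsp90 in zebrafish, fell by 0.44 with 26.2 and 24.6 CPM in CDT against 38.3 and 31.2 CPM in normal tail. SLC25A4, the mitochondrial ADP and ATP carrier of muscle and heart in mammals, fell by 0.41. Of these 6, 1 was still called without CDT replicate 1, 4 without CDT replicate 2, 2 without normal tail replicate 1 and 0 without normal tail replicate 2. Without normal tail replicate 2 none of the 65 was called and without CDT replicate 2 there were 8, and the median was negative each time. None of 26 heart genes was called.

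**Figure D3:**
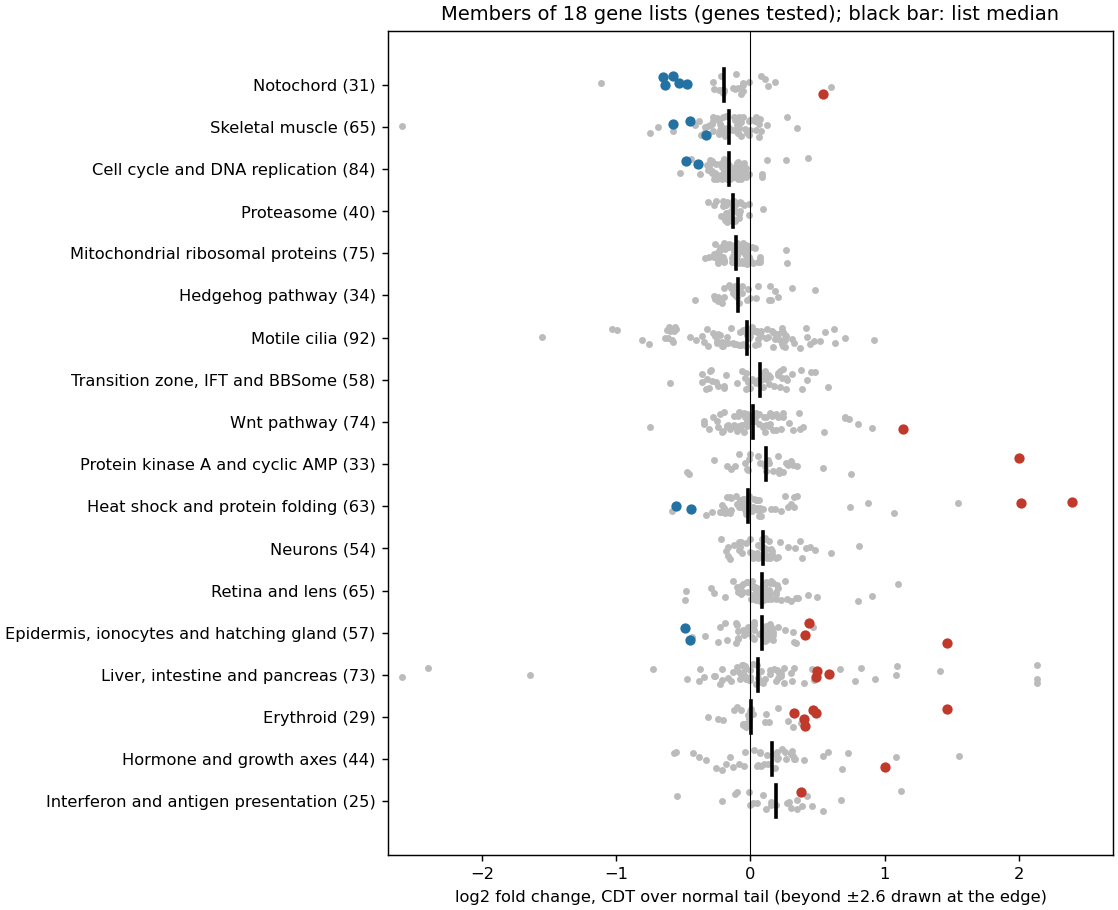
Each point is a gene of 1 of 18 lists, with its log2 fold change of CDT over normal tail on the horizontal axis, and the black bar is the median of the list. Called genes are red when higher and blue when lower, and 2 points beyond 2.6 in size are drawn at the edge. The medians of notochord, muscle, cell cycle and proteasome genes lie to the left of 0, at -0.19, -0.16, -0.16 and -0.13.

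Genes of cell division and protein turnover had mostly small negative values, of which few or none passed the test. Of 84 cell cycle and DNA replication genes, 79 had negative values, the median was -0.16 and 46 had both CDT libraries below both normal tail libraries, against 19.2% of all genes. Only 2 were called, both lower: UHRF1, which keeps DNA methylation through replication, with 28.4 and 22.4 CPM in CDT against 34.8 and 36.1 CPM in normal tail (-0.48), and RPA2, which coats single-stranded DNA, with 46 and 52.1 CPM in CDT against 65.8 and 62.8 CPM in normal tail (-0.39). Of 40 proteasome genes 39 were negative with a median of -0.13, 28 did not overlap with CDT below, and none was called. Their summed level was 5023 and 5406 CPM in CDT and 5837 and 5710 CPM in normal tail. Of 75 mitochondrial ribosomal protein genes 66 were negative with a median of -0.11, and none was called. The median log2 distance of the 75 from their mean over the mutant libraries was -0.128 in CDT replicate 1 and 0.025 in CDT replicate 2. It was 0.059 and 0.049 in the normal tail libraries, so CDT replicate 2 lay near these and the shift was mainly that of CDT replicate 1. The counts of edgeR p under 0.05 before adjustment were 23 lower for the cell cycle and 12 lower for the proteasome. Over all 19636 genes tested, 939 were lower at this threshold. Leaving out normal tail replicate 1 or 2 left no cell cycle gene called.

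Of the 13 protein genes of the mitochondrial genome, 2 were called and fell, while 10 others had positive values. The list was added after the values were seen. MT-CO2, a core subunit of cytochrome oxidase, had 770.3 and 867 CPM in CDT against 1202 and 1185 CPM in normal tail, and 786 and 823 CPM in WT (log2 fold change -0.54, SE 0.08, edgeR adjusted p = 3.84e-05), and its call held under all 14 alternatives. MT-ND3, a subunit of complex I, had 78.8 and 108 CPM in CDT against 162 and 128 CPM in normal tail (-0.63, SE 0.10, edgeR adjusted p = 0.000112). For both, the normal tail libraries were the highest of the 6. MT-CO1, made from the same genome, went the other way with 934 and 769 CPM in CDT against 672 and 698 CPM in normal tail and 0.31, and did not pass (SE 0.09, edgeR adjusted p = 0.0625). Of 105 nuclear genes of the respiratory chain 1 was called, cox8b, a small oxidase subunit, which rose by 0.92 with 5.17 and 5.72 CPM in CDT against 2.6 and 3.09 CPM in normal tail. UCP1, a mitochondrial uncoupling protein chosen after its values were seen, rose by 0.58 with 21.8 and 18.9 CPM in CDT against 17 and 10.9 CPM in normal tail. MT-ND3 lost its call without normal tail replicate 1, and of the 4 called genes of this paragraph 2 were still called without CDT replicate 1, 3 without CDT replicate 2, 2 without normal tail replicate 1 and 2 without normal tail replicate 2. MT-CO1 passed with CDT replicate 2 left out, at 0.44.

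**Figure D4:**
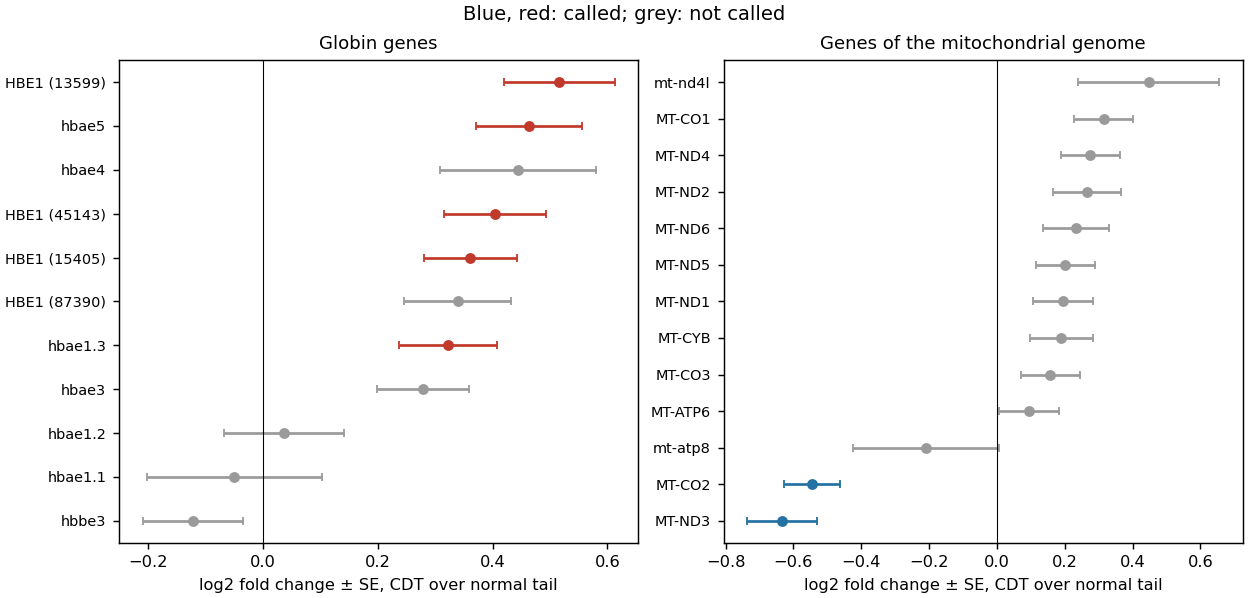
Log2 fold change of CDT over normal tail with bars of 1 SE for 11 globin genes (left) and 13 genes of the mitochondrial genome (right), where called genes are red when higher and blue when lower. The 5 called globins lie above 0, and MT-CO2 and MT-ND3 lie apart from the 10 mitochondrial genes with positive values.

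Chaperone genes were split by kind and by library. Of 63 heat shock and protein folding genes 2 were called higher and 2 lower, against 0.657% and 0.295% of all genes. The higher ones belong to the Hsp70 family: hspa1b had 1.4 and 3.06 CPM in CDT against 0.799 and 0.351 CPM in normal tail (2.02), and a low copy listed as HSPA8 (ENSDARG00000037403) had 1.66 and 8.51 CPM in CDT against 0.799 and 1.05 CPM in normal tail (2.4). In both the rise rested on CDT replicate 2, which was far above CDT replicate 1, and WT had 5.13 and 2.11 CPM of the HSPA8 copy. The abundant copy of HSPA8 (ENSDARG00000068992) was even, with 1881 and 1943 CPM in CDT against 1875 and 1901 CPM in normal tail and 0.02. The lower ones were UNC45B and hsp90aa1.1, named above with muscle. Without CDT replicate 2, normal tail replicate 1 or normal tail replicate 2, none of the list was called. Among genes of oxidative, hypoxic and xenobiotic stress 1 of 62 was called, prdx1, a peroxiredoxin that removes peroxide, which fell by 0.33 with 82.4 and 87.6 CPM in CDT against 110.1 and 104 CPM in normal tail.

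Immune genes were called in both directions. The chemokine ccl34a.4 had 0.702 and 0.817 CPM in CDT against 2.3 and 2.88 CPM in normal tail, and 3.36 and 3.06 CPM in WT, and fell by 1.78. Others that fell were cxl34b.11, named as a chemokine-like ligand, by 0.98 with 10.4 and 8.85 CPM in CDT against 17.1 and 20.6 CPM in normal tail, cfhl2, named after complement factor H, by 0.86 with 9.44 and 9.46 CPM in CDT against 20.8 and 14 CPM in normal tail, and the galectin lgals2b by 0.81 with 7.85 and 6.74 CPM in CDT against 8.49 and 16.4 CPM in normal tail. Among those that rose were mfap4.8 and MFAP4, of a family known as a macrophage marker in zebrafish, at 1.06 and 0.53, with 14.4 and 18.3 CPM in CDT against 8.59 and 7.23 CPM in normal tail for the first. CTSH, a lysosomal protease, rose by 0.59, and b2ml, a light chain of class I molecules, by 0.38. Of 47 leukocyte and inflammation genes 1 was called higher, MFAP4, and 1 lower, ccl34a.4. The fold change was positive for 31 of the 47, with a median of 0.18, and both CDT libraries were above both normal tail libraries in 19 of them and below in 9, against 19.8% and 19.2% of all genes. Of 25 interferon and antigen presentation genes b2ml was the 1 call. Here 19 of the 25 had a positive fold change, the median was 0.19, and the CDT libraries were both above in 13 and both below in 1. The leukocyte marker lyz was low in every mutant library, with 3.51 and 3.88 CPM in CDT against 3.5 and 3.02 CPM in normal tail. Among the 8 called, 6 were still called without CDT replicate 1, 5 without CDT replicate 2, 5 without normal tail replicate 1 and 3 without normal tail replicate 2. CTSH and mfap4.8, whose calls held under all 14 alternatives, were chosen after their values were seen.

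Genes of skin were divided. Of 57 genes of epidermis, ionocytes and hatching gland 3 were called higher and 2 lower, against 0.657% and 0.295% of all genes. The third higher one was the SLC4A1 copy (ENSDARG00000024560) named with the blood genes. The adhesion protein gene epcam had 336 and 328 CPM in CDT against 245 and 256 CPM in normal tail (0.41), and ca15a, a carbonic anhydrase of ionocytes, rose by 0.44. The 2 that fell were the annexins anxa1c, with 555 and 606 CPM in CDT against 783 and 842 CPM in normal tail (-0.49), and its neighbour anxa1d (-0.45). None of 21 keratin genes was called. SLC6A9, a glycine transporter known from glia and red cell precursors, fell by 0.63 with 33.5 and 31.3 CPM in CDT against 50.6 and 49.9 CPM in normal tail, and its call held under all 14 alternatives. Of 337 solute carriers 2 were called higher, the SLC4A1 copy and SLC25A36, a mitochondrial nucleotide carrier, at 0.60. The 2 called lower were SLC6A9 and SLC25A4. Over all genes, 0.657% were called higher and 0.295% lower. Of the 6 genes first named here, 5 were still called without CDT replicate 1, 4 without CDT replicate 2, 3 without normal tail replicate 1 and 1 without normal tail replicate 2.

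Some regulators of messenger RNA splicing were called higher in CDT, while their list as a whole was near even. Of 34 such genes, 6 were called, all higher, against 0.657% of all genes. The median of the 34 was 0.03, with 19 positive and 15 negative values. As the list was added after the values were seen, its count of calls does not describe splicing genes at large. The gene rsrp1, an arginine and serine rich protein, had 12.3 and 12.3 CPM in CDT against 6.4 and 6.18 CPM in normal tail, and 24.5 and 21.5 CPM in WT (0.97, SE 0.17, edgeR adjusted p = 0.000225). The other 5 were leng8 at 0.83, NKTR at 0.55, RBM5 at 0.54, tial1 at 0.49 and clk4a, a kinase of splicing factors, at 0.41. The nuclear long noncoding RNA malat1 had 89.5 and 107 CPM in CDT against 56.7 and 58.6 CPM in normal tail and 203 and 169 CPM in WT, and rose by 0.77. For rsrp1 and malat1 the order was normal tail lowest, CDT between and WT highest, and both calls held under all 14 alternatives. For the 7 as a group, 6 were still called without CDT replicate 1, 5 without CDT replicate 2, 4 without normal tail replicate 1 and 2 without normal tail replicate 2. The choice of malat1 was made after its values were seen.

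Several of the steepest falls were in genes known only by clone names, some of which are given by identifier. The gene si:ch1073-190k2.1 had 3.06 and 3.2 CPM in CDT against 13.1 and 13.7 CPM in normal tail, 19.8 and 19.4 CPM in WT, and fell by 2.1 (SE 0.18, edgeR adjusted p = 1.57e-11). In ENSDARG00000094518 the levels were 0.829 and 0.477 CPM in CDT against 4.7 and 3.86 CPM in normal tail and 12.5 and 11.7 CPM in WT, a fall by 2.67. For si:ch1073-340i21.3 they were 3.44 and 2.86 CPM in CDT against 7.69 and 7.86 CPM in normal tail and 24.6 and 32.6 CPM in WT, a fall by 1.3. These 3 shared an order, CDT lowest, normal tail between and WT highest. All 3 were lower in mutant than WT at 5 dpf as well, by 3.64, 4.17 and 3.99 on the log2 scale. The gene si:ch211-132b12.1 had 0 and 6 counts in CDT, 25 and 25 in normal tail and 11 and 9 in WT, a ratio of 0.096 with an exact 95% counting interval of 0.034 to 0.224. A 5S_rRNA gene (ENSDARG00000090457) fell by 2.07, and its value is uncertain because such genes have many like copies. The gene ENSDARG00000069381, chosen after its values were seen, had 0 counts in both CDT libraries against 4 and 12 in normal tail and 8 and 11 in WT. In the other direction, si:ch211-64i20.3 had 8.55 and 9.74 CPM in CDT against 2.8 and 3.44 CPM in normal tail but 0.32 and 0.191 CPM in WT and rose by 1.53, and si:ch211-223a21.3 rose by 1.7. Both were also higher in mutants at 5 dpf, by 3.06 and 2.35. Leaving ENSDARG00000069381 aside, of the 7 others 5 were still called without CDT replicate 1, 5 without CDT replicate 2, 4 without normal tail replicate 1 and 5 without normal tail replicate 2.

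**Figure D5:**
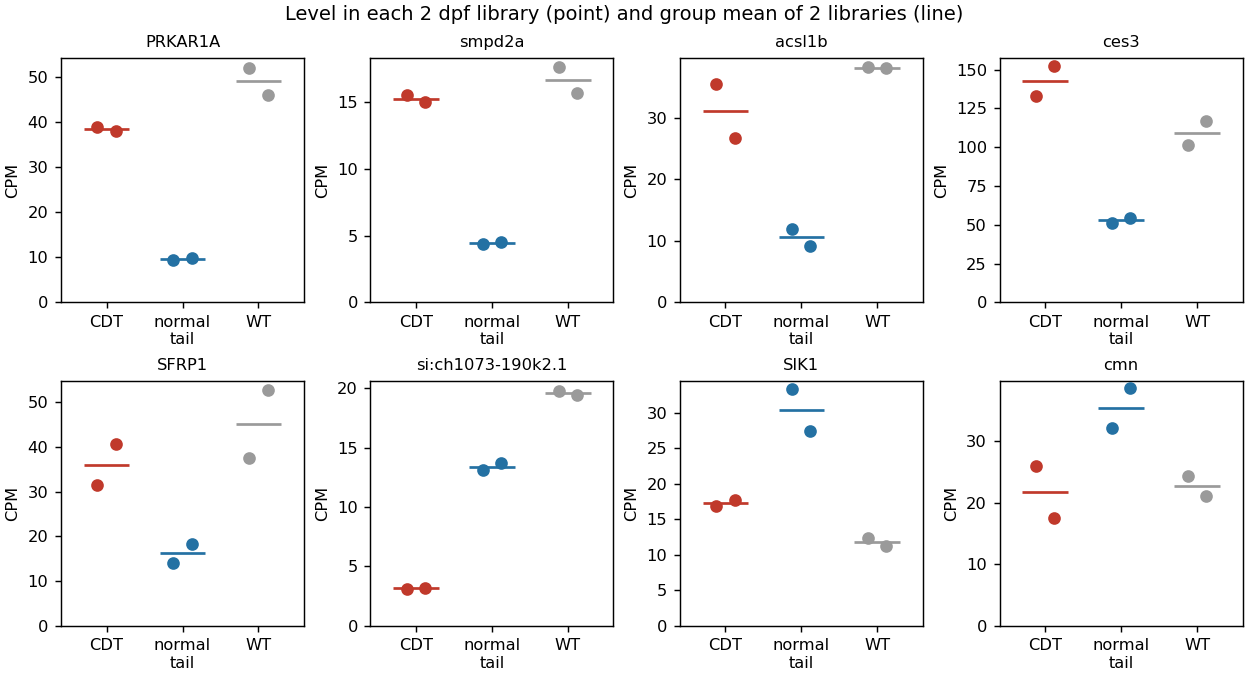
Level in CPM of 8 genes in each library at 2 dpf, with a point for each of 2 libraries per group and a line at their mean, for CDT (red), normal tail (blue) and WT (grey). For PRKAR1A, smpd2a, acsl1b and SFRP1 the normal tail libraries lie apart from both CDT and WT, for si:ch1073-190k2.1 the CDT libraries are the lowest, and for SIK1 the normal tail libraries are the highest.

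Of the 30 genes with the largest changes that could be named, 15 in each direction, 7 were called under all 14 alternatives. Those not yet described that rose were si:dkey-286h2.3 at 1.9 with 2.3 and 2.04 CPM in CDT against 0.50 and 0.632 CPM in normal tail, helz2c, of a helicase family, at 1.72 with 2.36 and 2.52 CPM in CDT against 0.50 and 0.913 CPM in normal tail, and SCCPDH at 1.52 with 4.66 and 3.61 CPM in CDT against 1.3 and 1.54 CPM in normal tail. Also higher were ENSDARG00000102371 at 1.57 with 5.93 and 6.4 CPM in CDT against 2.2 and 1.97 CPM in normal tail and ENSDARG00000092578 at 1.46 with 3.06 and 3.81 CPM in CDT against 1.4 and 1.12 CPM in normal tail. Those that fell were a copy of TMEM120A (ENSDARG00000042379), a membrane protein, by 0.74 with 5.93 and 5.99 CPM in CDT against 11 and 9.13 CPM in normal tail, and si:ch73-234b20.5 by 0.74 with 15 and 12.9 CPM in CDT against 22.8 and 23.7 CPM in normal tail. The tyrosine phosphatase gene ptpn9b, just below these in size and chosen after its values were seen, rose by 1.36 with 13.9 and 13.1 CPM in CDT against 6.4 and 4.35 CPM in normal tail. Single calls came from other lists. Among 231 zinc finger genes 2 were called, znf1106 and znf185, both higher, against 0.657% of all genes. For znf1106 there were 13 and 13 counts in CDT against 1 and 0 in normal tail. Its ratio was 20.8, with an exact 95% counting interval of 3.41 to 851. The gene trpm1b, for a channel of pigment cells, rose by 0.87 and was the 1 call among 34 pigment cell genes. Of 33 neural crest and cartilage genes the 1 call was the COL2A1 copy. Of these 11 genes before COL2A1, 5 were still called without CDT replicate 1, 5 without CDT replicate 2, 3 without normal tail replicate 1 and 4 without normal tail replicate 2.

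No gene on the cilium lists was called, where the share over all genes was 0.952%, so lists of this size can lack a call. Of 58 genes of the transition zone, intraflagellar transport and the BBSome, 92 of motile cilia, 47 of the centrosome and 34 of the Hedgehog pathway, none was called, with medians of 0.07, -0.03, -0.02 and -0.09. The median level in the mutants was 1.93 CPM for motile cilia genes, against 25.5 CPM for called genes. Of the 34 Hedgehog genes 25 had negative values. Both CDT libraries were below both normal tail libraries in 11 of them and above in 5, against 19.2% and 19.8% of all genes. *rpgrip1l* itself (RPGRIP1L, ENSDARG00000051754) gave 36 and 18 counts in the CDT libraries against 22 and 27 with a normal tail, a log2 fold change of -0.19 (SE 0.37) that turned to 0.17 without CDT replicate 2, and its level does not check the labels. Of 12 genes of the Reissner fiber and urotensin axis none was called. The peptide gene urp2 gave 11 and 4 counts with CDT against 10 and 21 with a normal tail, a log2 fold change of -1.34 (SE 0.53, edgeR adjusted p = 0.307). The receptor kinase musk, at -0.75 (SE 0.32, edgeR adjusted p = 0.354), and the centriole gene CEP76, at 0.77 (SE 0.24, edgeR adjusted p = 0.131), were not called either. Of the 51 lists, 24 had at least 1 called gene and 27 had none. The 25 of these with at least 10 genes tested had medians from -0.13 to 0.14, among them neurons, neural progenitors and glia, retina and lens, ear and lateral line, endothelium, pronephros, posterior Hox genes, the p53 response and the clock.

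Paralogues and neighbours of the called genes were looked at to see how local the differences were. No paralogue of the 30 largest changes was called: smpd2b was at 0.23, ACSL1 at 0.27 and sccpdhb at 0.08. In the order of genes on another zebrafish assembly, GRCz12tu, 124 of the 187 called genes could be placed among 14263 tested genes. Genes that share a symbol with another tested gene were not placed, such as the copies of HBE1, SLC4A1 and COL2A1. Pairs or runs that include such copies, as among the globins, could therefore not be seen. Those placed formed 9 pairs with no more than 5 placed genes between them, and no run of 3 or more. In 6 pairs both genes moved the same way, among them ces2a with ces3, apoa4a with apoea, anxa1c with anxa1d and myhz1.3 with myhz2. Among the placed genes, the share called on a chromosome was at most 1.51%, against 0.869% of all placed genes.

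The libraries at 5 dpf are other samples than those compared here, and compare mutant with WT, not tail forms. There, 3.84% of 20071 genes were called, 1.28% higher and 2.56% lower in the mutant. Of the 123 genes higher in CDT that could be tested at 5 dpf, 16 were called higher and 16 lower. Of the 56 lower in CDT, 2 were called higher and 18 lower. Both SLC4A1 (ENSDARG00000024560) and ces3 were higher in CDT than in normal tail at 2 dpf. At 5 dpf they were lower in the mutant than in WT, by 2.37 and 0.94. Set against WT at 2 dpf, the log2 fold change of SLC4A1 was 0.55 in CDT and -0.91 in normal tail. That of ces3 was 0.39 in CDT and -1.04 in normal tail, so these values do not show a difference between ages. The notochord gene cmn was lower in the mutant than in WT at 5 dpf by 1.07 (edgeR adjusted p = 0.000679). At 2 dpf it was lower in CDT than in normal tail. Set against WT at 2 dpf, its log2 fold change was -0.06 in CDT and 0.65 in normal tail.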

How the data were processed

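RNA was poly(A) selected from pools of whole embryos and read as 150 bp pairs. The authors trimmed the reads (Trim Galore 0.4.4), mapped them on GRCz11 (STAR 2.7.3a) and tallied them per gene (HTSeq 0.12.3, default options). What was deposited is the raw count of each gene in each library, not normalized. The 5 counters of reads on no single gene, 56.3% to 57.5% of reads at 2 dpf, were left out. Near-identical copies, overlapping genes and antisense partners may share or lose reads in such counts.

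Genes were tested in R 4.3.3 with edgeR 4.0.16 after TMM scaling and a filter on low counts (filterByExpr). Its quasi-likelihood p-values were adjusted by Benjamini-Hochberg. The 6 libraries at 2 dpf shared 1 fit with 3 residual degrees of freedom, and the 4 at 5 dpf another with 2. CPM values use TMM-scaled library sizes. SE is that of the log2 fold change. Counting intervals are exact at the 95% level and cover counting error only, since no molecular identifiers are named. Each mutant library holds at least 9101264 counts on genes, which sets the precision of low genes. The 2 dpf fit was tested on counts simulated with the same spread in every group and changes of at least 2-fold. Smaller changes and unequal spread were not covered.

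Symbols were looked up by gene identifier. Copies that share a symbol are given with their identifiers.

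The genes named were, among called genes with a symbol, a mean of at least 1 CPM over the 4 mutant libraries and no overlap between the groups, the 15 with the largest change in each direction, called members of 51 gene lists, genes the study names about these libraries, and paralogues of the 30. Of these, 1 called member of a list is not reported here. Other genes are marked as chosen after their values were seen. The members and lists were chosen with earlier results of these data known, and 5 further lists (globins, apolipoproteins, carboxylesterases, splicing regulators and genes of the mitochondrial genome) were added after the values were seen. Alternatives were DESeq2 1.42.0, scaling by upper quartile or by library size only, no filter, at least 10 counts in every library, the 4 mutant libraries alone, all 10 libraries, a replicate block and each library left out in turn.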

Additional observations from a re-analysis of the deposited data

How the results depend on the processing

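Of the 187 genes called, 129 higher and 58 lower in CDT, DESeq2 with its size factors called 76, 50 higher and 26 lower, and shared 73 with edgeR. DESeq2 gave no adjusted p for 9137 genes, 35 of the 187 among them. A fit of all 10 libraries called 81, 56 higher and 25 lower, and shared 79. With no filter on low counts 89 were called lower. Leaving out 1 library gave 62 to 246 calls, 37 to 146 higher and 25 to 100 lower, with the fewest without normal tail replicate 2 and the most without CDT replicate 2. A fit with the replicate block called 298 genes, 110 of them lower. Deviations of same-numbered libraries correlated by 0.0261 between CDT and normal tail, 0.0024 between CDT and WT and 0.0240 between normal tail and WT. With 2 libraries per group these values cannot tell whether same-numbered pools shared a clutch or parents. The numbers were not treated as pairs. The share of calls that were higher ran from 59.3% to 70.9% over the alternatives, and the median of all genes lay between -0.0063 and 0.0075 under each scaling. The fold change of *rpgrip1l* (RPGRIP1L) ran from -0.72 to 0.17 when 1 library was left out. Among genes that were not called, those of COL2A1 (ENSDARG00000011407) ran from -0.35 to 0.18, of SLC4A1 (ENSDARG00000012881) from -0.12 to 0.092, of HSPA8 (ENSDARG00000068992) from -0.014 to 0.041, of hbbe3 from -0.27 to 0.032, of hbae1.1 from -0.31 to 0.17 and of smpd2b from -0.048 to 0.66, so that no direction holds for them. With 2 libraries per group, leaving 1 out assumes that the lone library varies like the other groups. Genes of a few counts are limited by depth, and the intervals given for them are wide.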
